A study of Mus with 7 samples.

Results

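Klf2, Klf3, Klf4, Klf6, Klf10 and Klf13 are genes for Krüppel-like factors (KLFs), and they were described here in every library of a single-cell RNA sequencing study of macrophages. The 6 genes were found by their symbols among the 31053 genes of the count files. The set was selected on measured values, because Klf2 was among the genes with the highest level in DHA relative to vehicle. Among genes detected in 50% or more of the cells on either side, Klf2 ranked number 3 of 6276 genes by this ratio at 0 h, just behind Mt2 with a ratio of 3.85 and just ahead of Ftl1-ps1 with a ratio of 2.53. The levels of Klf2 with and without DHA are therefore a description and carry no test.

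KLFs are zinc finger transcription factors that bind GC-rich and CACCC-type sequences in promoters and enhancers, and different members activate or repress overlapping sets of genes. In myeloid cells KLF2 is known as a restraint on inflammatory activation, KLF4 as a factor of monocyte differentiation and alternative activation, and KLF6 as a factor that favours inflammatory activation. Several members behave as early response genes, with short-lived transcripts and proteins removed through ubiquitin ligases.

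The cells were FLMs, self-renewing macrophages grown from mouse fetal liver with 30 ng/mL GM-CSF and labelled wild type. Con cells were taken from medium with 10% FBS before any treatment. All other cells stood for 24 h in 0.25% FBS with 8.3 µM BSA as vehicle (Veh) or with 25 µM docosahexaenoic acid (DHA), an omega-3 fatty acid, on the same amount of BSA. They were collected without lipopolysaccharide (Veh.LPS.0 and DHA.LPS.0), or after the DHA or BSA medium was replaced with 20 ng/mL LPS for 1 h (Veh.LPS.1 and DHA.LPS.1) or 4 h (Veh.LPS.4 and DHA.LPS.4). LPS is the bacterial ligand of the receptor TLR4. Each condition was 1 library, so differences between conditions could not be checked against replicates, and all intervals given are 95% intervals for counting error only.

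Cells were barcodes with over 20000 UMIs (counted RNA molecules), at least 2000 genes and under 20% mitochondrial UMIs. This left 2908 cells of Con, 993 to 3073 cells in the Veh libraries and 692 to 795 in the DHA libraries, with 22045775 to 125716982 UMIs per library and a median of 29369 to 56239 UMIs per cell. Of all barcodes, 12.1% to 18.5% were kept in the DHA libraries and 40.7% to 62.5% in the others, and at least 74.4% of the barcodes of each DHA library held 20% or more mitochondrial UMIs. DHA and this loss of barcodes cannot be told apart. At most 10 kept barcodes of a library were also kept in another library. All kept cells held at least 3 of 9 macrophage markers, and none held 3 markers of any of 8 other cell types, endothelial cells and lymphocytes among them. KLF2 is also known from endothelial cells, and the 4 endothelial markers together reached 0.22 to 0.70 CPM (UMIs scaled to a library total of 1000000). No other cell type was present in which free RNA could be measured, so the shares of cells below have no such background beside them.

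Klf2 was highest in the 2 DHA libraries of the early hours and lowest in Veh after 4 h of LPS. Klf2 (ENSMUSG00000055148, chromosome 8, 72319062 to 72321654, mm10) had 15.4 CPM in Con (interval 14.8 to 16.1). In Veh it had 18.6 CPM at 0 h (17.7 to 19.4), 26.9 CPM at 1 h (25.8 to 27.9) and 6.62 CPM at 4 h (5.98 to 7.31). In DHA it had 64.6 CPM at 0 h (61.9 to 67.3), 69.0 CPM at 1 h (66.1 to 71.9) and 26.8 CPM at 4 h (24.7 to 29.0). At each hour the DHA library was higher than the Veh library of that hour, and the intervals of the pair did not overlap. In the order of the 7 levels, DHA.LPS.4 beside Veh.LPS.1 and DHA.LPS.0 beside DHA.LPS.1 did not differ beyond their intervals, while the other neighbours did.

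The DHA/Veh ratio of Klf2 was 3.48 at 0 h (3.27 to 3.70), 2.57 at 1 h (2.42 to 2.72) and 4.04 at 4 h (3.55 to 4.61). At 1 h it ranked number 4 of 5404 genes. At 4 h a Klf2 UMI was found in 28.6% of DHA cells and 18.5% of Veh cells, so Klf2 fell under the 50% limit and was not counted there. Klf2 was detected in 51.0% of the cells in DHA.LPS.0 (47.2 to 54.8) against 29.9% in Veh.LPS.0 (28.1 to 31.7), and in 61.6% against 41.1% at 1 h. In cells thinned to 20000 UMIs each these shares were 34.7% and 19.5% at 0 h, 48.8% and 32.7% at 1 h, and 23.4% and 9.06% at 4 h.

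With LPS, Klf2 in Veh was 1.45 times its level at 0 h after 1 h (1.36 to 1.54) and 0.357 times after 4 h (0.319 to 0.398). In DHA the same ratios were 1.07 (1.01 to 1.13) and 0.415 (0.378 to 0.454). The log2 ratio of 1 h to 0 h was lower in DHA than in Veh by 0.44 (difference -0.44, -0.56 to -0.32). This difference uses the 0 h values on which Klf2 was chosen, which favours a lower ratio in DHA, so nothing is read from it. From 1 h to 4 h Klf2 dropped to 0.246 of its level in Veh and to 0.388 in DHA. Veh.LPS.0 relative to Con gave a ratio of 1.20 (1.13 to 1.28), the step that covers reduced serum, BSA and 24 h of culture together.

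**Figure D1:**
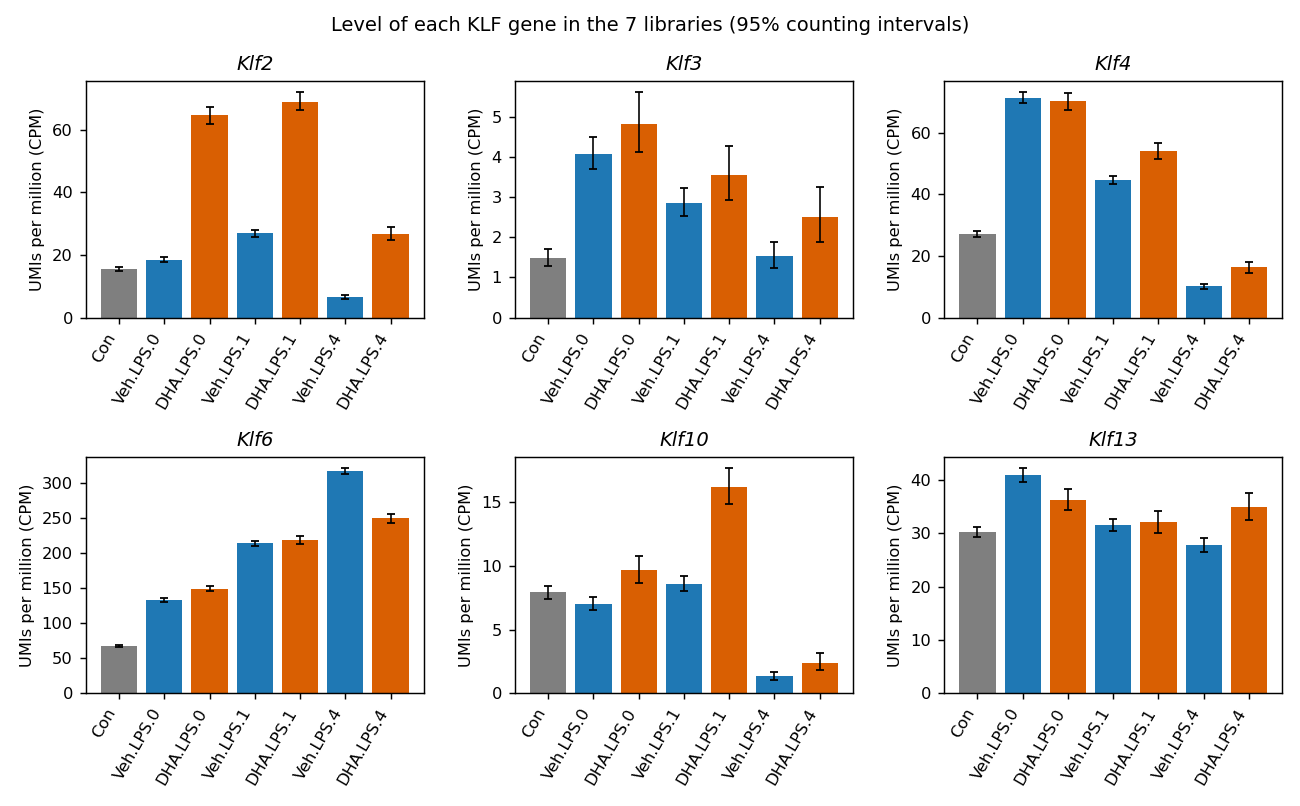
Level of each KLF gene in CPM (vertical axis, starting at 0 and scaled per panel) in the 7 libraries, with Con in grey, Veh in blue and DHA in orange, and exact 95% counting intervals. Klf2 stands at 64.6 and 69.0 CPM in DHA at 0 and 1 h against 18.6 and 26.9 CPM in Veh, Klf4 falls and Klf6 climbs with hours of LPS, and Klf13 keeps within 27.8 to 41.0 CPM.

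Klf4 (ENSMUSG00000003032, chromosome 4, 55527137 to 55532475), which encodes the closest relative of KLF2 in this set, was high in reduced serum without LPS and low after 4 h of LPS. It had 27.0 CPM in Con, then 71.4, 44.6 and 10.1 CPM over 0, 1 and 4 h in Veh and 70.2, 54.2 and 16.3 CPM in DHA. The 2 libraries without LPS in reduced serum did not differ beyond their intervals, and every other step in the order of levels did. The DHA/Veh ratio was 0.982 at 0 h (0.938 to 1.03), 1.21 at 1 h (1.15 to 1.28) and 1.61 at 4 h (1.41 to 1.83). The fall with LPS from 0 to 4 h was to 0.142 in Veh (0.130 to 0.154) and to 0.232 in DHA (0.207 to 0.259). Klf4 ranked number 27 from the lowest of the 6297 genes compared in Veh, and its log2 ratio was higher in DHA than in Veh by 0.71 (0.51 to 0.91). The share of cells with a Klf4 UMI ran from 27.8% in DHA.LPS.4 to 87.4% in DHA.LPS.0, and in thinned cells from 15.4% in Veh.LPS.4 to 68.3% in Veh.LPS.0.

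Klf6 (ENSMUSG00000000078, chromosome 13, 5861489 to 5870393) was the one gene of the 6 that was higher at 4 h of LPS than at 0 h. It had 67.7 CPM in Con, then 133, 214 and 317 CPM over 0, 1 and 4 h in Veh and 149, 219 and 250 CPM in DHA. Its order was thus Con, then 0 h, then 1 h, then 4 h, and only Veh.LPS.1 and DHA.LPS.1 did not differ beyond their intervals. The ratio of 4 h to 0 h was 2.38 in Veh (2.33 to 2.44) and 1.67 in DHA (1.61 to 1.74), and the log2 ratio in DHA was lower by 0.51 (difference -0.51, -0.57 to -0.45). The DHA/Veh ratio was 1.12 at 0 h (1.09 to 1.16), 1.02 at 1 h (0.995 to 1.05) and 0.788 at 4 h (0.764 to 0.812). A Klf6 UMI was present in 83.7% to 99.8% of cells.

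Klf10 (ENSMUSG00000037465, chromosome 15, 38291464 to 38300711), known as an early gene of TGF-beta signalling, stood highest in DHA after 1 h of LPS. It had 7.91 CPM in Con, then 7.03, 8.58 and 1.35 CPM over 0, 1 and 4 h in Veh and 9.68, 16.2 and 2.40 CPM in DHA. Con, Veh.LPS.0, Veh.LPS.1 and DHA.LPS.0 formed a run of neighbours with overlapping intervals. DHA.LPS.1 was above this run, and both 4 h libraries were under it. The DHA/Veh ratio was 1.38 at 0 h (1.21 to 1.57), 1.89 at 1 h (1.69 to 2.11) and 1.78 at 4 h (1.24 to 2.56). At most 37.4% of the cells of any library held a Klf10 UMI, so the gene was not counted against the 1.5-fold limit in any comparison.

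Klf3 (ENSMUSG00000029178, chromosome 5, 64803521 to 64832901), whose protein represses through CtBP, was sparse. It had 1.49 CPM in Con, then 4.08, 2.86 and 1.54 CPM over 0, 1 and 4 h in Veh and 4.83, 3.55 and 2.50 CPM in DHA, from 55 to 403 UMIs per library. All neighbours in this order had overlapping intervals, although the ends differed. Veh.LPS.0 was 2.74 times Con (2.30 to 3.28), and Veh.LPS.4 was 0.376 times Veh.LPS.0 (0.296 to 0.474). The DHA/Veh ratios of 1.18 at 0 h (0.982 to 1.42) and 1.24 at 1 h (0.989 to 1.56) had intervals that held 1, and the ratio at 4 h was 1.62 (1.14 to 2.30).

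Klf13 (ENSMUSG00000052040, chromosome 7, 63886351 to 63938915), known for its action on the chemokine gene Ccl5 in lymphocytes, varied least. It had 30.3 CPM in Con, then 41.0, 31.6 and 27.8 CPM over 0, 1 and 4 h in Veh and 36.3, 32.1 and 35.0 CPM in DHA. The highest level was 1.47 times the lowest. The DHA/Veh ratio was 0.886 at 0 h (0.832 to 0.944), 1.02 at 1 h (0.945 to 1.09) and 1.26 at 4 h (1.15 to 1.37). The annotated ranges of Klf3, Klf10 and Klf13 each overlap other annotated genes, and how the counting used strand is not given in the sources used here, so some of their UMIs may belong to those genes.

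**Figure D2:**
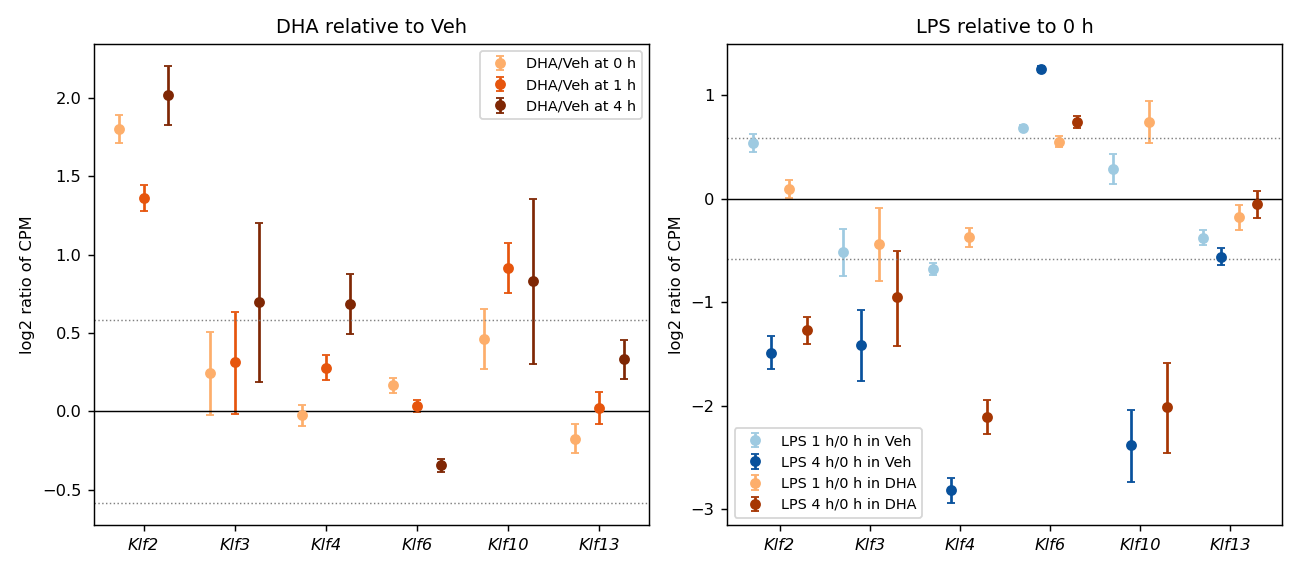
Log2 ratio of CPM (vertical axis) for each KLF gene, DHA relative to Veh at 0, 1 and 4 h on the left and LPS relative to 0 h in Veh and in DHA on the right, with 95% counting intervals and dotted lines at 1.5-fold. Klf2 lies past the upper line at all hours on the left, and on the right Klf6 is the only gene above 0 at 4 h.

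Counted by size over 1.5-fold, with the 50% limit on cells, the 6 genes gave few counts. Between DHA and Veh, Klf2 was the 1 gene past the limit among the 4 compared at 0 h, where 1.58% of all genes were past it. It was again the 1 of 4 at 1 h, where 2.55% of all genes were past it. At 4 h none of the 2 genes compared was past it, against 3.71% of all genes. The rule used this contrast, so nothing is read from the counts at 0 and 1 h. With LPS in Veh, 2 of 3 genes were past the limit at 1 h (Klf6 higher and Klf4 lower, 6.46% of all genes) and 2 of 3 at 4 h (Klf6 higher and Klf4 lower, 44% of all genes). With LPS in DHA, 0 of 4 were past it at 1 h (7.6% of all genes) and 3 of 4 at 4 h (Klf6 higher, Klf2 and Klf4 lower, 39.2% of all genes). Klf2 entered the 4 h count in DHA only through DHA.LPS.0, a library of the rule's contrast, where 51.0% of cells held a UMI. In Veh it was under the 50% limit at 0 and 4 h and was left out. Its ratio of 4 h to 0 h was 0.357 in Veh and 0.415 in DHA. Nothing is read from the difference in counts between the arms. For Veh.LPS.0 relative to Con, 2 of 3 were past the 1.5-fold limit, Klf4 and Klf6, both higher (16.5% of all genes). The share of all genes past the limit was large at 4 h, and the median log2 ratio of all genes compared there was -0.28 in Veh and -0.24 in DHA. Scaling by TMM factors, which balance the bulk of genes, moved these medians to 0.15 and 0.06, and the count of higher and lower genes in Veh from 719 and 2053 to 1526 and 1031. Klf2, Klf3, Klf4 and Klf10 lay below 0 and Klf6 above 0 at 4 h in both arms under both scalings, while Klf13 in DHA went from -0.05 to 0.25.

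The 6 genes were further described within bands of cells, since the kept DHA cells differed from the Veh cells in number, in depth and in proliferation. The 8 proliferation markers summed to 1174, 1044 and 574 CPM over the 3 hours of DHA, and to 1571, 1554 and 376 CPM over those of Veh. In cells with at most 7, with 8 to 35 and with over 35 UMIs of these markers at equal depth, the Klf2 DHA/Veh ratio was 2.89, 4.79 and 3.17 at 0 h, 2.68, 2.50 and 1.93 at 1 h, and 5.04, 2.15 and 2.05 at 4 h. These ratios repeat the contrast on which Klf2 was chosen, in subsets of the same cells, so they are a description, and the smallest group held 34 cells. In bands of 20000 to 30000, 30000 to 50000 and over 50000 UMIs per cell the ratio was 5.02, 3.23 and 2.94 at 0 h, 2.74, 2.37 and 2.56 at 1 h, and 4.06, 3.79 and 3.18 at 4 h.

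The ratio of Klf2 differed most between bands of mitochondrial share. Under 5% mitochondrial UMIs it was 15.5 at 0 h (10.6 to 23.7), 8.08 at 1 h (6.58 to 10.0) and 17.6 at 4 h (11.4 to 28.3). From 5 to 10% it was 3.15, 1.79 and 2.96, and from 10 to 20% it was 2.22 (1.85 to 2.67), 1.36 (1.10 to 1.68) and 1.57 (0.930 to 2.61). At each hour the ratio was lower in each higher band, and at 4 h the interval of the last band held 1.

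**Figure D3:**
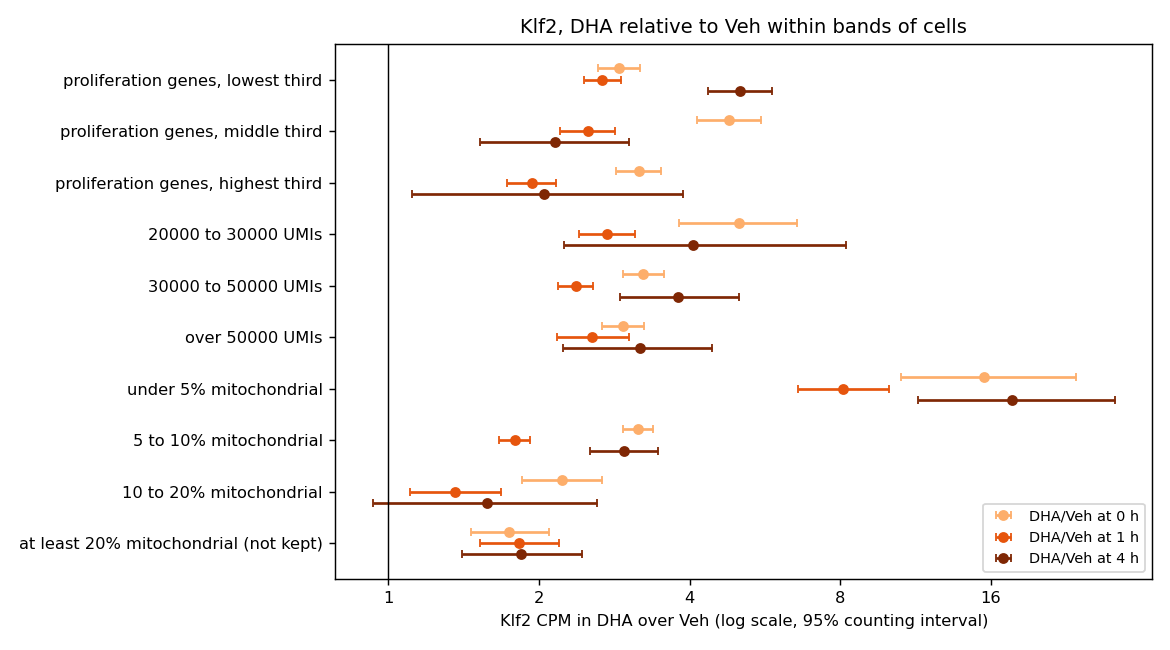
Ratio of Klf2 CPM in DHA to Veh (horizontal axis, log scale, with 95% counting intervals) within bands of cells by proliferation markers, UMIs per cell and mitochondrial share, at 0, 1 and 4 h. The lowest band holds barcodes that were not kept. The points under 5% mitochondrial UMIs, from 8.08 to 17.6, lie to the right of all other bands, whose ratios run from 1.36 to 5.04.

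Klf2 was unevenly spread over cells, and this spread differed between the libraries. At 20000 UMIs per cell, 5 or more Klf2 UMIs were found in 71 cells of DHA.LPS.0, which are 10.2% of its cells and held 68.9% of its Klf2 UMIs. The same class was 61 cells or 7.67% in DHA.LPS.1, with 48.8% of the UMIs, and 21 cells or 3.03% in DHA.LPS.4, with 50.5% of the UMIs. Con had 0.688% of its cells in this class, and Veh had 1.25%, 1.43% and 0.302% over the 3 hours. The highest count in a cell was 36, 39 and 29 in the DHA libraries and 8 to 25 in the others. Capping the thinned UMIs at 3 per cell, an alternative chosen after the values were seen, gave log2 DHA/Veh ratios of 1.26, 0.94 and 1.53 at 0, 1 and 4 h, against 1.80, 1.36 and 2.01 over all UMIs. In DHA.LPS.0, 10% of cells held 68.4% of the Klf2 UMIs, 32.9% of those of Klf4, 25.7% of those of Klf6 and 36.0% of those of Klf13. For the sparse genes Klf3 and Klf10 this share was 100% and 64.9%, from means of 0.0917 and 0.192 UMIs per cell against 1.29 for Klf2, and no cell held more than 3 UMIs of either. The Klf2 share in 10% of cells was 55.6% and 77.4% in DHA at 1 and 4 h. It was 70.1% in Con and 72.9%, 56.3% and 100% over the 3 hours of Veh, from means of 0.146 to 0.540 UMIs per cell. This share was not higher in DHA than in Veh at any hour. In Veh.LPS.4, however, 9.06% of cells held a Klf2 UMI, so the share there could only be 100%. The variance of Klf2 UMIs per cell divided by their mean was 7.3, 5.8 and 8.0 over the 3 hours of DHA. It was 3.5, 2.2 and 2.4 over those of Veh and 2.1 in Con. Both measures depend on the mean, which was higher in DHA, so neither compares the spread at an equal level.

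**Figure D4:**
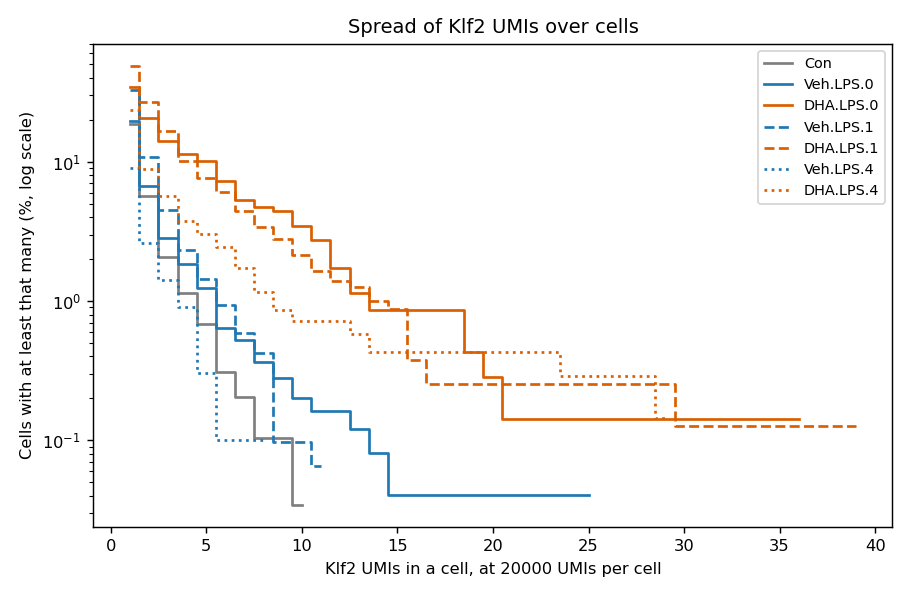
Percent of cells (vertical axis, log scale) with at least the number of Klf2 UMIs on the horizontal axis, in cells thinned to 20000 UMIs, for the 7 libraries (Con grey, Veh blue, DHA orange, with solid, dashed and dotted lines for 0, 1 and 4 h). The orange lines reach 29 to 39 UMIs in a cell and the others 8 to 25.

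The cells under 5% mitochondrial UMIs carried a larger part of Klf2 in the DHA libraries than elsewhere. This split was looked at in detail after its values were seen. These cells were 55, 80 and 72 cells of DHA at 0, 1 and 4 h (7.88%, 10.1% and 10.4% of cells) and held 17.9%, 38.2% and 37.1% of the Klf2 UMIs. In Veh they were 77, 111 and 64 cells (at most 6.45% of a library) and held 1.53%, 4.05% and 5.93%. Klf2 had 161, 274 and 105 CPM in these cells of DHA against 57.1, 47.2 and 18.6 CPM in the other cells of the same libraries. In Veh the values were 10.4, 33.9 and 5.97 CPM against 18.8, 26.6 and 6.67 CPM. In cells thinned to the same depth a Klf2 UMI was found in 70.9%, 82.5% and 52.8% of the DHA cells under 5%, and in 31.6%, 45.0% and 20.0% of the others. This class is not that of the cells with 5 or more Klf2 UMIs. Those had a median mitochondrial share of 7.2%, 5.6% and 3.3% in DHA at 0, 1 and 4 h, against 7.5%, 7.3% and 6.6% in the rest. Most of them were thus not under 5% at 0 and 1 h, while most were at 4 h. Without the cells under 5% in any library, the Klf2 DHA/Veh ratio was 3.04 at 0 h (2.85 to 3.24), 1.77 at 1 h (1.66 to 1.89) and 2.79 at 4 h (2.41 to 3.23). Klf2 with LPS at 1 h in DHA then stood lower than at 0 h, with a log2 ratio of -0.27 in place of 0.10.

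Klf4 and Klf6 also differed across this split. In DHA.LPS.4 Klf4 had 43.6 CPM in the cells under 5% and 13.4 CPM in the others, a ratio of 3.25 (2.53 to 4.14), with ratios of 1.26 and 1.75 in DHA at 0 and 1 h and of 1.11 to 1.19 in Veh. In Con the ratio was 1.82 (1.31 to 2.47), above those of DHA at 0 and 1 h. Without the cells under 5% the Klf4 DHA/Veh ratio at 4 h was 1.34 (1.16 to 1.56). For Klf6 the ratio of cells under 5% to other cells was 1.37, 1.26 and 1.20 in DHA at 0, 1 and 4 h. It was 1.28 in Veh.LPS.4 and 2.81 in Con (2.39 to 3.28), and all these intervals lay above 1. In Veh at 0 and 1 h it was 1.06 and 0.98, with intervals that held 1. For Klf10 this ratio was 0.598 (0.331 to 1.00) at 0 h, 0.685 (0.471 to 0.966) at 1 h and 0.574 (0.115 to 1.78) at 4 h in DHA, from 15, 35 and 3 UMIs under 5%, and the interval held 1 at 0 and 4 h. In Con, 24 cells were under 5%, and Klf10 had 70.0 CPM there against 7.48 CPM in the other Con cells, from 60 UMIs. A Klf10 UMI was found in 29.2% of those 24 cells, and 2 cells of all Con held 10 or more Klf10 UMIs after thinning, so few cells carried this value.

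The genes that stood with Klf2 in those cells were named by the smallest of the 3 ratios of cells under 5% to other cells over the DHA libraries, after a CPM of 3 was added. Only the 6015 genes above a lower CPM limit in the cells under 5% of all 3 DHA libraries were ranked. Genes low in those cells could thus not be named, and the list is a description of the cells it was taken from. Ccl5, a chemokine gene, was first, followed by Car6, Oasl1, Fam171b, Il6, Rsad2, Slc40a1 and Slc39a2, and Klf2 was number 20 of 6015. Oasl1 and Rsad2 are interferon-inducible and Il6 encodes a cytokine, while Slc40a1 encodes the iron exporter ferroportin. Ccl5 had 634, 559 and 1632 CPM in the DHA cells under 5% at 0, 1 and 4 h, and 7.26, 11.2 and 132 CPM in the other DHA cells. In Veh it had 0, 0.99 and 233 CPM under 5% and 2.03, 8.41 and 187 CPM in the others. Rsad2 had 40.2, 96.3 and 18.7 CPM in the DHA cells under 5% and at most 5.92 CPM in those of Veh. Il1b, a cytokine gene that LPS raises, had 362 CPM under 5% and 498 CPM in the other cells of DHA.LPS.4, and no UMI in either class of DHA.LPS.0. Median depth was 27368 to 42355 UMIs in the DHA cells under 5% and 30072 to 47891 in the other DHA cells. The part of cell quality, free RNA or doublets in the values of these cells was not tested.

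**Figure D5:**
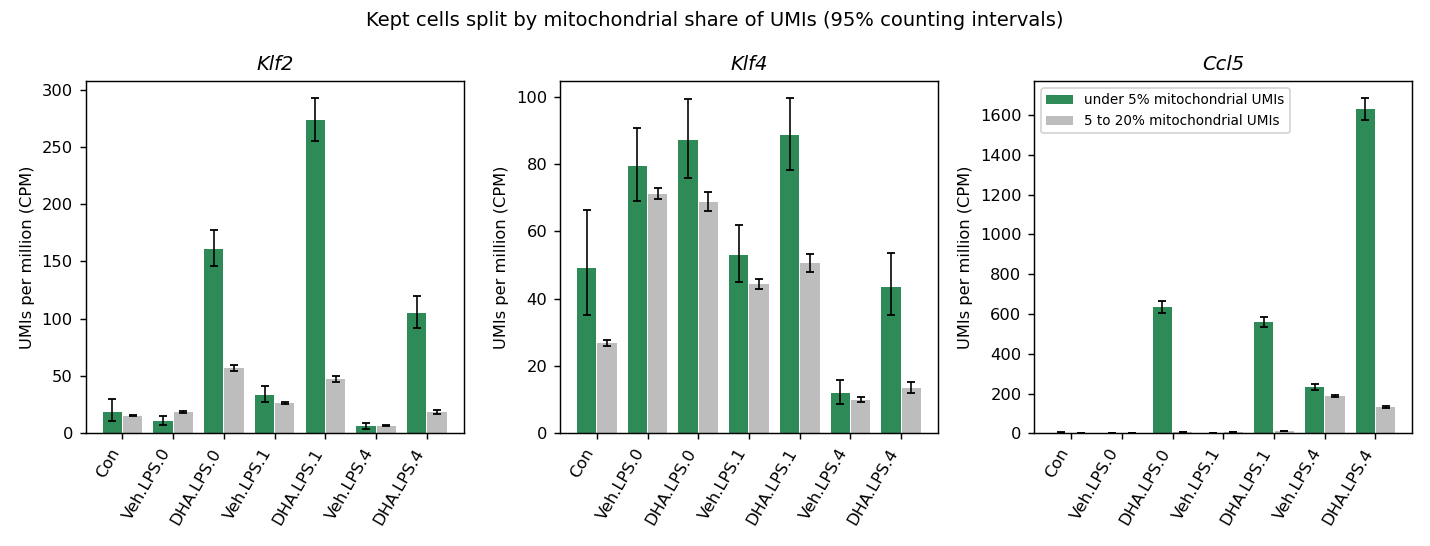
CPM (vertical axis, starting at 0) of Klf2, Klf4 and Ccl5 in kept cells under 5% mitochondrial UMIs (green) and from 5 to 20% (grey) in the 7 libraries, with 95% counting intervals. Klf2 and Ccl5 stand higher in green than in grey in each DHA library, up to 274 against 47.2 CPM for Klf2 in DHA.LPS.1.

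On CPM per cell, Pearson's r of Klf2 with Klf4 was 0.21 over 698 cells of DHA.LPS.0, 0.21 over 795 cells of DHA.LPS.1 and 0.54 over 692 cells of DHA.LPS.4, where Spearman's rho was 0.20. Without the cells under 5% mitochondrial UMIs r was 0.20, 0.09 and 0.47 at 0, 1 and 4 h. In Con and Veh it was between -0.03 and 0.06. The cells share their library, and the counts are sparse. Plin2 encodes a lipid droplet coat protein and had the highest DHA/Veh ratio at 0 h. With Plin2, r was 0.26, 0.52 and 0.32 in DHA at 0, 1 and 4 h. Without the cells under 5% mitochondrial UMIs it was 0.10, 0.13 and 0.21. In Veh r was 0.02, 0.13 and 0.03, and 0.02, 0.12 and 0.04 without those cells. In Con it was 0.04. Spearman's rho with Plin2 was 0.13, 0.24 and 0.24 in DHA and 0.04, 0.07 and 0.13 in Veh. Without those cells r at 1 h was thus close in DHA and Veh, while at 0 and 4 h it was higher in DHA. Klf2 and Plin2 both had lower CPM in Veh than in DHA, and sparser counts weaken r. These values of r were not compared at equal counts.

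In DHA cells at or above the median of Plin2, Klf2 was 1.54 times its level in cells below it at 0 h (1.42 to 1.68), 2.35 times at 1 h (2.13 to 2.59) and 3.48 times at 4 h (2.84 to 4.29). Over these hours Plin2 itself had 1466, 1707 and 1399 CPM in the DHA cells under 5% mitochondrial UMIs. In the other DHA cells it had 338, 405 and 658 CPM. Cells with an Il1b UMI at 4 h had 0.801 times the Klf2 of cells without one in Veh (0.648 to 0.993) and 0.616 times in DHA (0.522 to 0.727). Cells with a UMI of Acod1, the gene of the enzyme that makes itaconate, had 1.11 times the Klf2 of other cells in Veh.LPS.1 (1.02 to 1.21) and 1.85 times in DHA.LPS.1 (1.70 to 2.02). The splits by Plin2, Il1b and Acod1 took in the cells under 5% mitochondrial UMIs and were not repeated without them.

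The genes most like each KLF gene were taken by Pearson's r of log2(CPM + 1) over the 7 libraries, among 6849 or 6850 genes detected in 50% or more of the cells of any library. The libraries share serum, hours and treatment, so this is a description. For Klf2 they included Tex264, a receptor of endoplasmic reticulum turnover (r = 0.96), Cat, which encodes catalase (0.96), Ilvbl (0.95) and Higd1a, a gene of a mitochondrial protein (0.95). Cat had 31.8 CPM in Con, then 35.8, 36.2 and 28.3 CPM over 0, 1 and 4 h in Veh and 57.6, 54.5 and 43.3 CPM in DHA, so its range was narrower than that of Klf2. An r over 0.9 with Klf2 was found for 0.642% of these genes, and with Klf4 for 12.4%.

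Klf4 was most like Rbms2, Tmem30a and Scly, with r of 0.996 to 0.997. Klf6 was most like Atf3, a stress-inducible transcription factor gene (0.99), the chemokine gene Ccl4 (0.99) and the antiproliferative gene Btg1 (0.99). Atf3 had 10.1 CPM in Con, then 39.7, 144 and 419 CPM in Veh and 62.1, 143 and 261 CPM in DHA, the same order of hours as Klf6. Klf3 was most like the sterol sensor gene Insig2, Alkbh3 and the lysosomal peptidase gene Tpp1 (0.987 to 0.992), Klf10 like Ankrd28, Ppm1h and Eps8 (0.975 to 0.984), and Klf13 like E230032D23Rik, Rock2 and Rab5b (0.946 to 0.994).

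Of the 20 other genes of the KLF and SP families, 8 were detected in 10% or more of the cells of some library and 4 in 50% or more. Between DHA and Veh, 4, 3 and 4 of the 20 could be compared at 0, 1 and 4 h and none was past 1.5-fold, where 1.58%, 2.55% and 3.71% of all genes were. Klf7 had 48.0 CPM in Con, then 61.0, 75.6 and 122 CPM over 0, 1 and 4 h in Veh and 64.9, 80.7 and 126 CPM in DHA, so it climbed with LPS in both arms. Klf9, a gene known for its response to glucocorticoids, had 30.2, 16.3 and 22.2 CPM in Veh and 28.7, 16.8 and 20.2 CPM in DHA, lowest at 1 h. Sp3 had 44.4, 34.6 and 21.6 CPM in Veh and 44.1, 33.5 and 22.9 CPM in DHA. Sp1 had 22.5 to 31.7 CPM over the 7 libraries. Klf16, Sp2, Klf8 and Klf11 were under the 50% limit, and Klf11 had 1.27, 1.68 and 0.529 CPM in Veh and 2.60, 2.89 and 1.18 CPM in DHA.

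Genes around the KLFs were taken from lists chosen with earlier results of these data known. All counts of list genes that follow stand against 1.58%, 2.55% and 3.71% of all genes past 1.5-fold between DHA and Veh at 0, 1 and 4 h, and against 44% and 39.2% with 4 h of LPS in Veh and DHA. At such shares a count of 0 among a few genes says little. Upstream of Klf2 and Klf4 lie the kinase ERK5, encoded by Mapk7, and the MEF2 factors. None of the 5 genes of this list that were compared was past 1.5-fold between DHA and Veh at any hour, with a median log2 ratio of -0.08 at 0 h against -0.04 over all genes. At 4 h of LPS 3 of 5 were lower in Veh, Mef2c, Mef2d and Map2k5, where 2053 of all 6297 genes compared were lower. In DHA 2 of 5 were lower, Mef2c and Map3k2, where 1851 of all 6318 were. Mef2c had 370, 298 and 61.0 CPM in Veh and 326, 258 and 42.4 CPM in DHA. Among the ubiquitin ligases acting on KLF proteins, Wwp1 was lower at 4 h of LPS in both arms, falling from 20.9 to 8.48 CPM in Veh and from 25.4 to 10.2 CPM in DHA between 0 and 4 h. None of the 1 or 2 ligase genes compared was past the limit with DHA.

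Of the 10 KLF cofactors, 8 or 9 were compared and none was past 1.5-fold with DHA at any hour, where at most 3.71% of all genes were. Sin3a was lower at 4 h of LPS in both arms, with 48.0 and 16.6 CPM in Veh and 40.2 and 24.2 CPM in DHA, and Hdac2 in Veh. Ctbp1 went from 101 CPM in Con to 66.0 CPM in Veh.LPS.0.

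Of the 7 genes known as KLF2 targets in endothelium or T cells, 3, 3 and 2 could be compared between DHA and Veh at 0, 1 and 4 h, and the same 1 was past 1.5-fold each time, where 1.58%, 2.55% and 3.71% of all genes were. This was Itgb7, an integrin gene of lymphocyte homing, with 9.83 CPM in Con, then 22.0, 24.4 and 26.8 CPM over 0, 1 and 4 h in Veh and 42.6, 45.7 and 47.7 CPM in DHA. At 0 and 1 h Itgb7 was under the 50% limit in Veh. It was thus compared at those hours only through the DHA libraries, where it was higher, and nothing is read from those counts. Of the others compared, Il6ra was lower at 4 h of LPS, with 28.7 and 8.06 CPM in Veh and 22.8 and 6.94 CPM in DHA, and Cdkn1a was higher at 1 h, with 511 and 978 CPM in Veh and 507 and 873 CPM in DHA. S1pr1, under the 50% limit, had 3.38, 2.05 and 0.14 CPM in Veh and 4.54, 3.36 and 0.64 CPM in DHA. Thbd had no UMI in any library.

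Among genes of KLF4 and alternative activation, Cd14 and Stat6 were compared and neither was past the limit with DHA, while Cd14 was higher at 4 h of LPS in both arms. Retnla and Chil3 had no UMI, and Arg1 had at most 0.12 CPM. Of the genes linked to KLF6, Bcl6 had 2.97, 4.37 and 18.3 CPM in Veh and 4.45, 4.02 and 10.7 CPM in DHA, lower in DHA at 4 h by more than 1.5-fold. Bcl6 was over the 50% limit only in Veh.LPS.4. It was thus compared only through the library where it was highest, and nothing is read from its passing the limit. In the TGF-beta list around Klf10, 3 or 4 of 8 genes were compared and none was past the limit with DHA. At 4 h of LPS Tgfbr2 was lower, with 52.0 and 12.7 CPM in Veh and 46.5 and 10.8 CPM in DHA, and Tgfb1 higher, with 155 and 354 CPM and 145 and 371 CPM. Ccl5, the gene linked to KLF13, was under the 50% limit in all libraries. It had 1.97, 8.18 and 190.0 CPM in Veh and 52.2, 63.9 and 274 CPM in DHA. In DHA the cells under 5% mitochondrial UMIs held 1594, 1713 and 3404 Ccl5 UMIs, and the other cells 236, 321 and 2626. In the other cells Ccl5 had 7.26, 11.2 and 132 CPM in DHA and 2.03, 8.41 and 187 CPM in Veh. At 4 h it was thus lower in DHA than in Veh in those cells. Klf13 had a DHA/Veh ratio of 0.886 to 1.26 in all kept cells. A link between Klf13 and Ccl5 was not tested.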

How the data were processed

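FLMs were profiled with droplet-based 3' single-cell RNA sequencing, 1 library per condition. The authors deposited counts of UMIs per gene and barcode, not normalized and without a later filter on cells. The submitters' processing notes name Cell Ranger 3.1.0 and mm10, and the paper's methods name another version of the software. Barcodes were filtered by the limits of the study's methods, UMIs were summed per library and scaled to CPM. Shares and levels carry exact binomial or Poisson 95% intervals, which cover counting error only, and ratios an exact conditional binomial interval. No test was run, since cells are not replicates. Doublets were neither called nor removed here. Thinning drew 20000 UMIs per cell (numpy 2.4.6, Python 3.11.15), TMM factors came from edgeR 4.0.16, and the ratio was tested on simulated data. Members and lists were chosen with earlier results of these data known. Named genes were the 6 members, family genes in at least 10% of cells, the most like genes (1 is not reported here), and up to 4 list genes past 1.5-fold per comparison. Genes of the cells under 5% mitochondrial UMIs were chosen after their values were seen. Coordinates are from RefSeq GRCm38.p6 (mm10). Protein and promoter sequences were not used here. Alternatives varied scaling, filters, limits, thinning and proliferation.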

Additional observations from a re-analysis of the deposited data

Results flagged for a closer look

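Barcodes left out for a mitochondrial share of at least 20% entered no comparison, and some KLF genes differed there between DHA and Veh by more than 1.5-fold. Klf2 was higher in these DHA barcodes, with ratios of 1.74 at 0 h (1.46 to 2.09), 1.82 at 1 h (1.52 to 2.19) and 1.84 at 4 h (1.40 to 2.44). Its levels there were 20.3, 21.6 and 7.57 CPM in DHA and 11.6, 11.8 and 4.12 CPM in Veh, from 1337 to 4580 barcodes per library. Klf10 had ratios of 1.55 at 0 h and 1.86 at 1 h. Klf6 had ratios of 0.661 at 1 h and 0.454 at 4 h, and Klf4 a ratio of 0.513 at 4 h, where kept cells gave 1.61. CPM here was taken over totals with mitochondrial UMIs, so a larger mitochondrial share lowers the values of all other genes. With no filter on barcodes, the median log2 DHA/Veh ratio of all genes compared was -0.28, -0.32 and -0.21 at 0, 1 and 4 h. Whether Klf4 and Klf6 were lower than most genes in the barcodes left out was not tested. In kept cells the DHA/Veh ratio of Klf6 was 1.12 at 0 h and 0.788 at 4 h, and that of Klf13 was 0.886 at 0 h and 1.26 at 4 h. Each thus stood on opposite sides of 1 at these hours with both counting intervals off 1. In cells with at most 7 UMIs of proliferation markers the Klf6 ratio at 0 h was 0.999 (0.953 to 1.05), so the side of 1 at 0 h was not seen there. In the same cells Klf13 had 34.4 CPM in DHA.LPS.0 (31.6 to 37.3) and 34.9 CPM in Veh.LPS.0 (32.7 to 37.2). Its log2 ratio there was -0.02 in place of -0.17, and the 2 intervals overlapped. These differences between hours were not tested, since each value compares 1 library with 1 library.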

How the results depend on the processing

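No paired analysis was possible because each condition had 1 library. No value past 1.5-fold changed sign under any of the alternatives run, but sizes did change. With no filter on barcodes the log2 DHA/Veh ratio at 4 h of Klf4 went from 0.68 to 0.01. That of Klf10 went from 0.83 to 0.52 and that of Klf3 from 0.70 to 0.31, so all of these fell under 1.5-fold. The log2 DHA/Veh ratio of Klf2 (1.80, 1.36 and 2.01 at 0, 1 and 4 h) was 1.32, 0.91 and 1.55 with no filter on barcodes, and in cells with at most 7 UMIs of proliferation markers 1.53 at 0 h and 2.33 at 4 h. With 2 alternatives chosen after the data were seen, it was 1.60, 0.82 and 1.48 without cells under 5% mitochondrial UMIs, and 1.26, 0.94 and 1.53 with thinned UMIs capped at 3 per cell. The number of KLF genes past 1.5-fold with DHA at 0 h (1) was 0 with no filter, thinned, capped, in cells with few proliferation UMIs and without cells under 5%. In each of these Klf2 fell under 50% of cells, not under 1.5-fold. At 1 h (1) it was 0 with no filter, thinned or capped, and 2 with a 25% limit or none on the share of cells. At 4 h (0) it was 1 with no filter, 2 with the 25% limit and 4 with none. For LPS in Veh it went from 2 to 0 with a 2-fold limit and to 1 when capped at 1 h, and from 2 to 5 with no share limit and to 1 when capped at 4 h. For LPS in DHA it went from 0 to 1 at 1 h with TMM, a 25% limit or none, and from 3 to 1 with no filter or when capped and to 5 with no share limit at 4 h. For Veh.LPS.0 relative to Con it went from 2 to 1 with a 2-fold limit. Ratios near 1 changed sign with no filter for Klf3, Klf4 and Klf6 at 1 h, Klf3 and Klf6 at 0 h, and Klf13 at 1 and 4 h, for Klf4 at 0 h (-0.03) with a 10% mitochondrial limit (0.02) and in cells with few proliferation UMIs (0.16), and in those cells for Klf6 at 0 h (0.17 to -0.0012) and 1 h (0.03 to -0.09). Klf6 at 1 h also changed sign without cells under 5% mitochondrial UMIs (-0.0044), as did Klf2 with 1 h of LPS in DHA (0.10 to -0.27), and Klf13 with 4 h of LPS in DHA did with TMM (-0.05 to 0.25). The cause of these changes was not tested. The counts for Klf3 and Klf10 at 4 h rest on 53 to 90 UMIs per library, which limits what a difference there can show.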
